A study of Mus musculus with 10 samples.

Results

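The mitochondrial ribosomal protein genes were examined as the genes whose GENCODE M21 symbol is Mrpl or Mrps followed by a number and whose biotype is protein-coding. This rule, which uses names alone and no expression value, took 78 of the 53447 genes listed for each library, 49 large subunit genes (Mrpl) and 29 small subunit genes (Mrps). Each library came from the cerebellum of 1 mouse at P21, with 5 WT and 5 Dscam del17/del17 animals whose strain is labelled BALB/c. Per the study's methods, the line was crossed to BALB/cCrSlc. The mutant mice were homozygous for a spontaneous loss-of-function deletion in exon 17 of Dscam, a cell adhesion receptor gene, and carried it in every cell from the germline. The controls were WT littermates, both sexes were used in the study, and the labels give no sex. All comparisons below set the 5 mutant mice against the 5 WT mice, on TPM, a unit of transcript abundance that is scaled to each library and to the length of each transcript.

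Mitochondria keep their own ribosome, the mitoribosome, which translates only the few mRNAs encoded in mitochondrial DNA, all of them for subunits of the respiratory chain and the ATP synthase. Its small subunit reads the mRNA and its large subunit joins the amino acids. The RNA of both subunits is transcribed in the mitochondrion, whereas every protein of the mitoribosome is encoded in the nucleus, made in the cytosol and imported. Some of these proteins have counterparts in the bacterial ribosome and others were gained in mitochondria. Neurons of the cerebellum, as elsewhere in the brain, rely on oxidative phosphorylation.

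Dscam was examined first as a check of the labels. Its levels were 8.04, 8.43, 6.79, 9.05 and 6.29 TPM in WT replicates 1 to 5, and 5.11, 5.42, 4.53, 3.73 and 3.05 TPM in the mutant replicates. The genotypes did not overlap, and the exact two-sided permutation test gave p = 0.0079, the smallest value possible with 5 mice against 5. With limma across all genes the log2 fold change of mutant minus WT was -0.82 ± 0.23 (SE), with an adjusted p of 0.779.

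The tissue expressed its defining markers. The summed level of 12 granule cell markers ran from 3602 to 4487 TPM among WT mice and from 3549 to 4087 TPM among mutants, and that of 10 Purkinje cell markers was 6037 to 6819 and 5971 to 7255 TPM. The forebrain marker Emx1 was at 0 in every mutant mouse, whereas Ttr, made by the choroid plexus, was present at a mean of 2818 TPM in WT and 2641 TPM in mutant mice. The genes listed summed to between 684771 and 838532 TPM, and since TPM does not record read numbers, sequencing depth is not known. WT replicate 5 stood apart, with 15623 genes at 0.5 TPM or more against 17101 to 17763 in the other 9 libraries, and with the lowest mitochondrial RNA. WT replicate 3 had the second lowest mitochondrial RNA, and several results that turn on these libraries are also given without them. In whole tissue, fewer cells of a type and less RNA per cell cannot be told apart.

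All 78 genes were expressed in the cerebellum and passed the filter of 0.5 TPM in at least 5 of the 10 libraries. Their WT means ran from 4.65 TPM for Mrpl1 to 193 TPM for Mrps21, a span of 41.5-fold, with a median of 41.4 TPM. Of the 78 genes, 55 had a WT mean between 20 and 100 TPM. The median of the WT means was 41.4 TPM among large subunit genes and 37.5 TPM among small subunit genes.

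The most abundant mRNA was that of Mrps21, the homologue of a small bacterial ribosomal protein. Its levels were 202, 175, 195, 209 and 186 TPM in WT mice and 187, 120, 173, 157 and 177 TPM in mutant mice. The ranges overlapped, and mutant replicate 2 was the lowest mouse. Among large subunit genes the highest WT mean was that of Mrpl20, also conserved from bacteria, with 127 ± 24.3 TPM in the WT and 104 ± 30.7 TPM in the mutant group (SD, n = 5). Mrpl41, a protein found only in mitochondria, had 123 ± 19.2 and 131 ± 14.7 TPM, the highest mutant mean, and Mrpl53, also specific to mitochondria, had 112 ± 7.98 and 94.2 ± 9.08 TPM. The WT means of these 3 genes differed by less than the spread of Mrpl20 between mice, so their order is not settled. Mrps34, a small subunit protein specific to mitochondria, followed at 115 ± 16.2 and 104 ± 7.19 TPM, but 63.4% of its exon bases overlap Mapk8ip3 on the opposite strand and 37.0% Nme3 on the same strand. Among the other genes with small subunit names, the highest means over all libraries were those of Mrps24, at 76.7 ± 13.8 and 67.5 ± 10.3 TPM, and Mrps12, whose product belongs to the decoding centre, at 71.9 ± 16.2 and 70.5 ± 15.8 TPM.

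At the low end, Mrpl1 encodes a protein of the mobile stalk through which used tRNA leaves, and Mrpl47 is the homologue of bacterial L29. Mrpl47 was the least variable member in WT, with 8.02, 7.89, 7.91, 8.02 and 8.08 TPM, and varied more in mutant mice, with 7.19, 9.01, 6.48, 9.76 and 7.63 TPM. The lowest small subunit genes were Mrps25, at 10.5 ± 0.884 TPM in WT and 11.9 ± 2.69 TPM in mutant mice, and Mrps35, at 11.6 ± 2.93 and 10.8 ± 1.81 TPM. Both proteins are specific to mitochondria, and 69.8% of the exon bases of Mrps25 are shared with Nr2c2 on the opposite strand. The levels of Mrps25 and Mrps35 could not be ranked within the spread between mice.

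**Figure D1:**
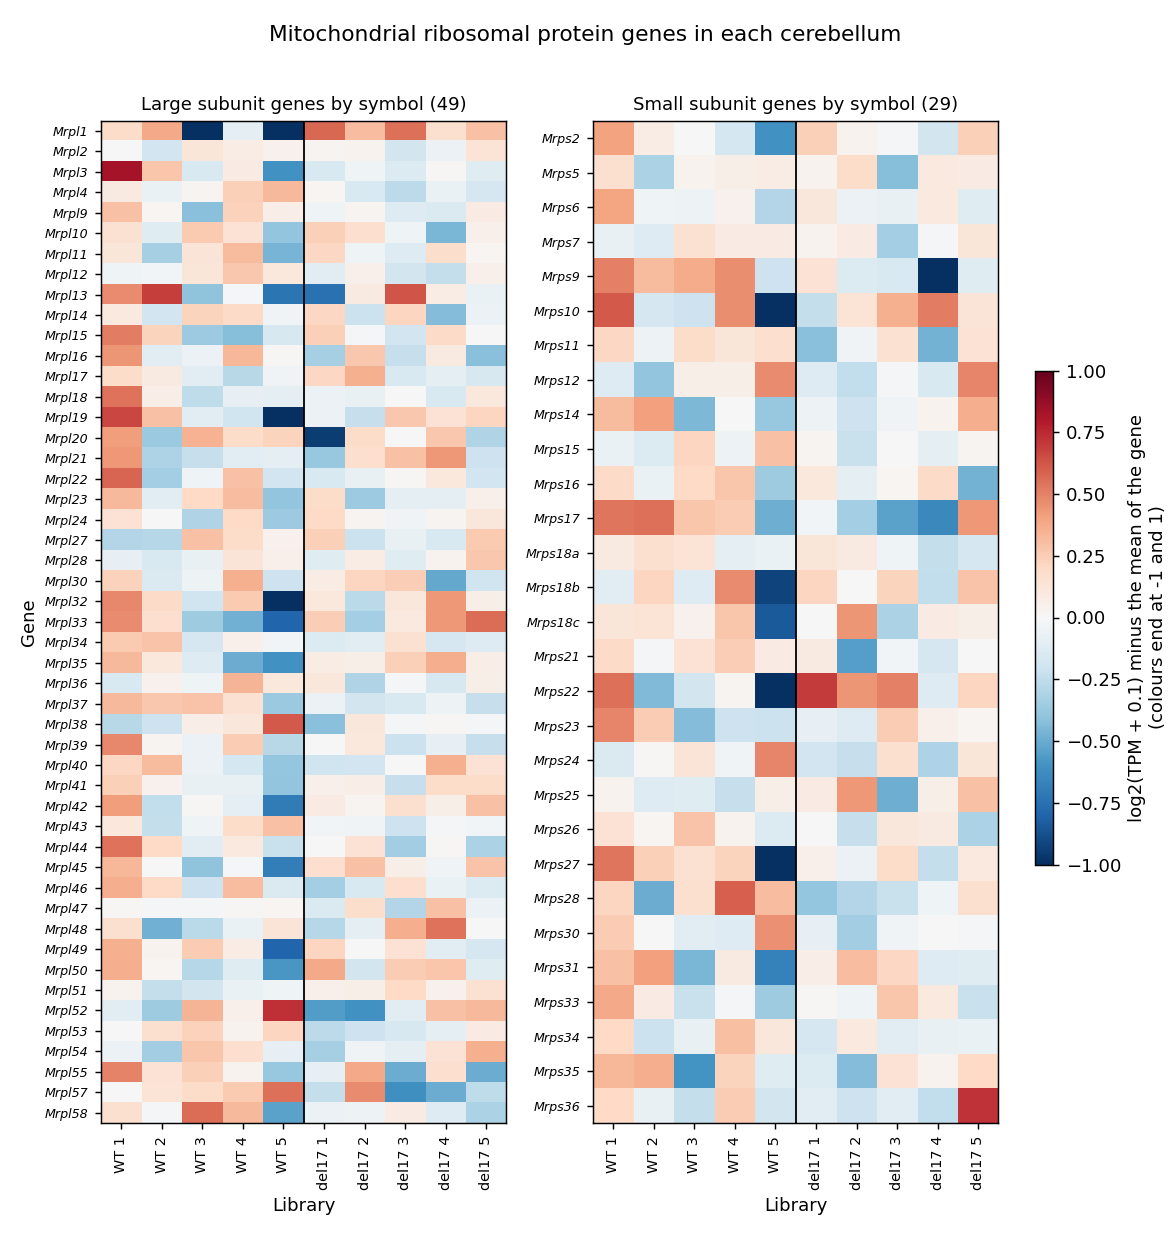
Level of each mitochondrial ribosomal protein gene in each library, as log2(TPM + 0.1) minus the mean of that gene over the 10 libraries (red higher, blue lower), with large subunit genes on the left and small subunit genes on the right. The black line separates the 5 WT from the 5 mutant libraries (del17). WT replicate 1 held the highest value of 28 of the 78 genes and WT replicate 5 the lowest of 27, and no block of genes separated the genotypes.

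The comparison between genotypes asked whether loss of DSCAM altered these genes in the whole cerebellum. No member passed the adjusted threshold of 0.05 in limma, and across all 17168 genes tested 0% did. The smallest adjusted p among the members was 0.779 and the largest 0.997. Of the 78 log2 fold changes (mutant minus WT), 33 lay above 0 and 45 below, with a median of -0.02, whereas over all genes 9613 lay above and 7555 below, with a median of 0.05. The members' values were close to 0. The log2 fold change was under 0.5 in either direction for 75 of the 78 members (96.2%), against 78% of all genes tested. These shares were not matched by level, and the filter admitted genes well below the level of any member. The 95% interval included 0 for 73 members. Half-widths of these intervals had a median of 0.37 on the log2 scale, which gives the precision for a typical member. At an unadjusted p under 0.05 there were 5 members of 78, against 5.55% of all genes, with 1 higher in mutant mice, against 2.29%, and 4 lower, against 3.26%. The members' share is near that of all genes.

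The subunits gave like values. Of the 49 large subunit genes 21 lay above 0 and 28 below, with a median log2 fold change of -0.02, and of the 29 small subunit genes 12 lay above and 17 below, with a median of -0.03. The medians differed by 0.01, less than 0.06, the SD between mice of one genotype of the difference between the subunits' median centred log2 levels. Without WT replicates 3 and 5, the medians were -0.10 and -0.13, and the median over all genes moved with them to -0.09. Without WT replicate 1, the medians were 0.0065 and -0.0029, against 0.10 for all genes.

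**Figure D2:**
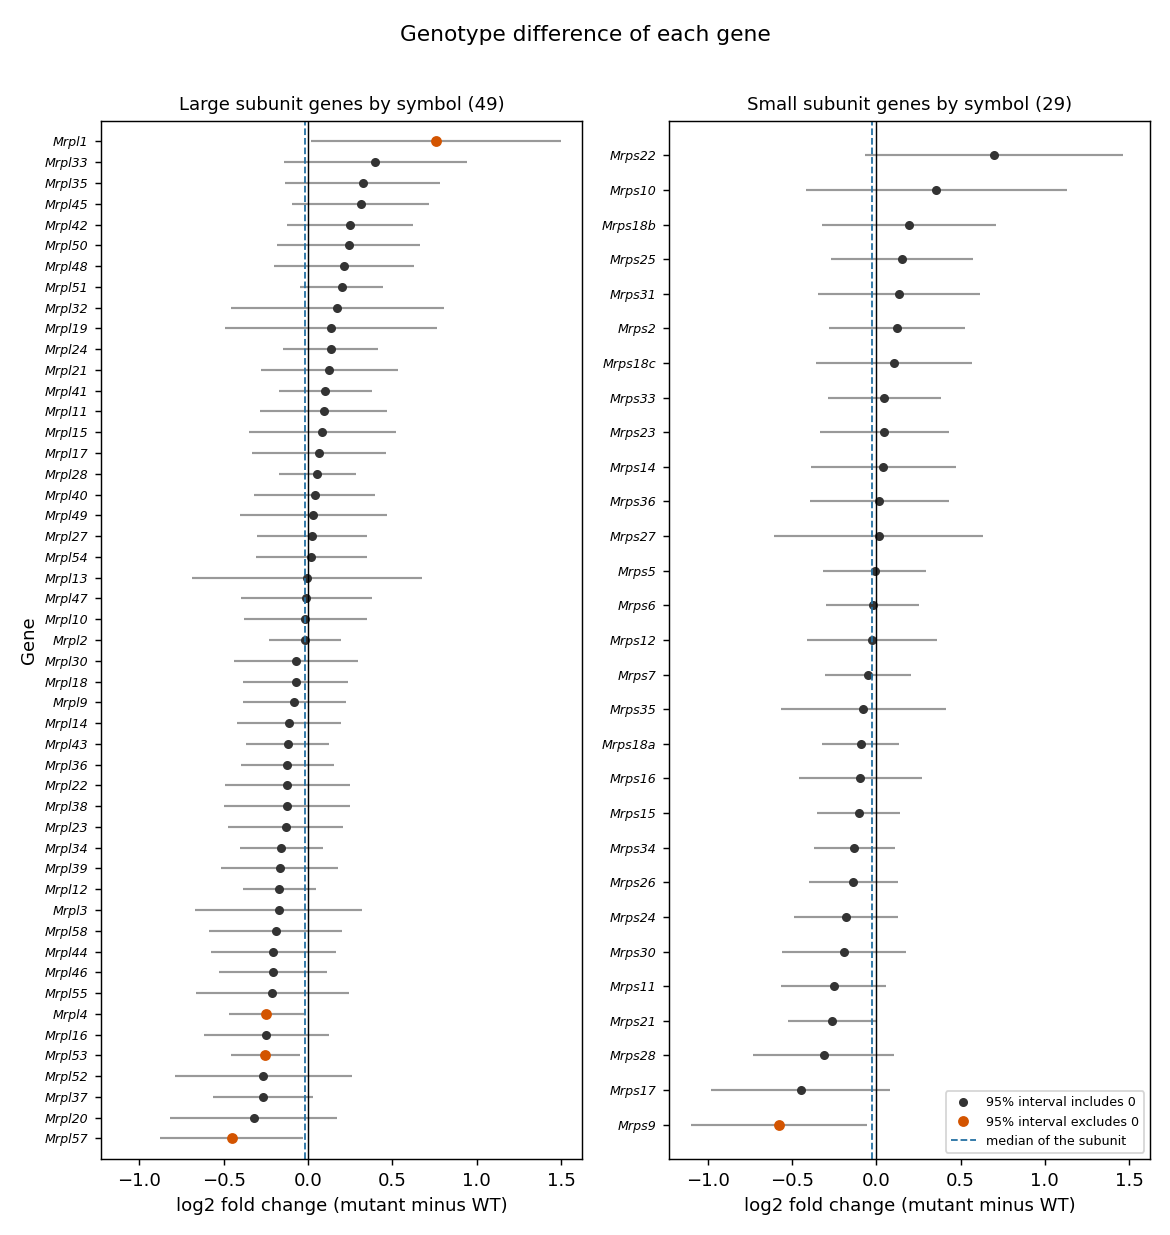
Log2 fold change (mutant minus WT, horizontal axis) of each member with its 95% limma interval, large subunit genes on the left and small subunit genes on the right, ordered by value. Orange points are the 5 genes whose interval excludes 0, none of which passed the adjusted threshold, and the dashed line is the median of the subunit, which lies next to 0 in both panels.

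The summed mRNA of the large subunit was 2621, 2199, 2367, 2474 and 2179 TPM in WT mice and 2176, 2246, 2217, 2269 and 2302 TPM in mutant mice. That of the small subunit was 1445, 1251, 1302, 1393 and 1232 TPM in WT mice and 1254, 1181, 1247, 1177 and 1335 TPM in mutant mice. The ranges overlapped, and the WT mice were the more spread, for both subunits. The mean sums were 2368 ± 187 and 2242 ± 48.3 TPM for the large subunit and 1325 ± 91.8 and 1239 ± 64.6 TPM for the small subunit (SD, n = 5). The ratio of large to small subunit mRNA, with genes sorted by symbol, was 1.81, 1.76, 1.82, 1.77 and 1.77 in WT mice. It was 1.74, 1.90, 1.78, 1.93 and 1.73 in mutant mice. The ratio was thus spread over a wider range in mutant than in WT mice, with means of 1.79 ± 0.0271 and 1.81 ± 0.0949, and the WT values lay inside the mutant range.

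**Figure D3:**
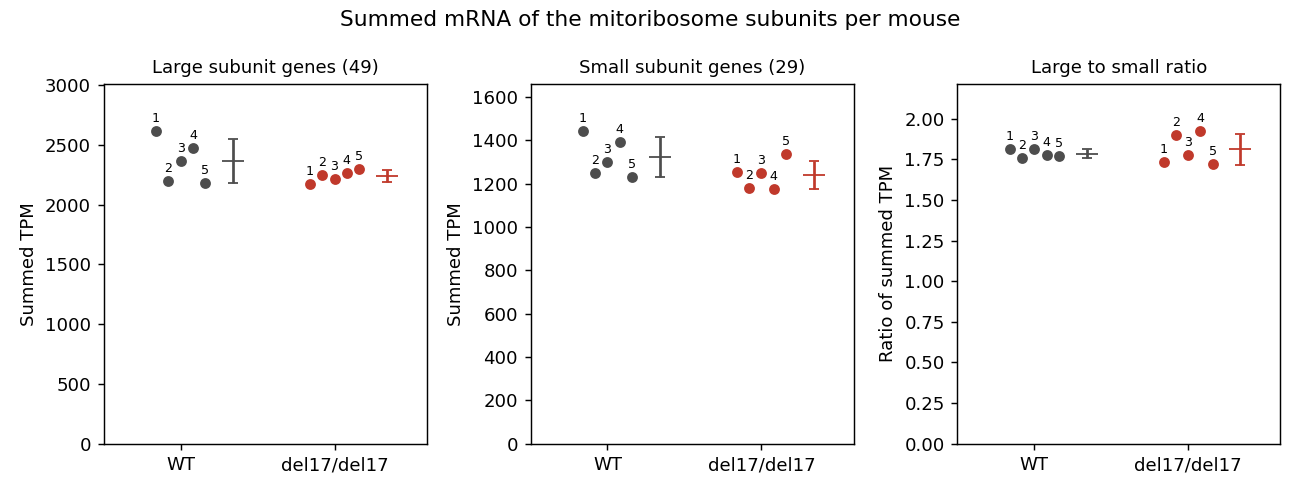
Summed TPM of the 49 large subunit genes, of the 29 small subunit genes, and their ratio, in each mouse (numbers are replicate numbers, vertical axes start at 0), with the mean and SD of the 5 mice per genotype beside the points. Subunits are by symbol. The genotypes overlap in all 3 panels, and the ratio stays between 1.73 and 1.93 in every library.

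Symbols and places in the mitoribosome do not match fully. Mrps30 and Mrps18a keep small subunit names, although structures place their proteins in the large subunit, and Mrps36 encodes a component of the 2-oxoglutarate dehydrogenase complex. When the genes were sorted by structure, 51 large subunit genes had a median log2 fold change of -0.07 and 26 small subunit genes one of -0.02. Sorted this way, the large subunit summed to 2454 ± 186 TPM in WT and 2322 ± 43.2 TPM in mutant mice. The small subunit summed to 1190 ± 86.5 and 1109 ± 50.7 TPM (mean and SD). The sums and ratios given above are by symbol. Among the large subunit genes, 30 with bacterial counterparts had 12 values above 0 and 18 below, and 21 specific to mitochondria had 9 above and 12 below. Among the small subunit genes, 16 with bacterial counterparts had 4 above and 12 below with a median of -0.07, whereas 10 specific to mitochondria had 7 above and 3 below with a median of 0.05. Leaving out the 9 members that share over 20% of their exon bases with another gene left 27 values above 0 and 42 below, with a median of -0.05. The split of the small subunit depended on the WT libraries, since without WT replicates 3 and 5 the same 10 genes had 2 above 0 and 8 below. Of all genes tested, 66.3% lay below 0 in that fit, against 44.0% with all mice.

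The 5 genes counted above with an unadjusted p under 0.05 were looked at in every mouse. Mrpl1, the stalk gene (ENSMUSG00000029486, chr5:96209493-96266727 on GRCm38, plus strand), had 6.24, 7.16, 2.56, 5.12 and 2.18 TPM in WT mice and 8.21, 6.79, 8.05, 6.15 and 6.75 TPM in mutant mice. WT replicates 3 and 5, the libraries with the least mitochondrial RNA, were the lowest of the 10, and WT replicates 1 and 2 lay within the mutant range. Its log2 fold change of 0.76 ± 0.34 (SE) was the largest of the members, with an exact permutation p of 0.0556 and an adjusted p of 0.779 in limma. The log2 fold change without WT replicates 3 and 5 was 0.22.

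Mrps9 encodes the homologue of bacterial S9, whose tail reaches the tRNA in the small subunit, and lies at chr1:42851233-42905683 on the plus strand (ENSMUSG00000060679). Its levels were 34.4, 30.2, 31.4, 33.5 and 20.98 TPM in WT mice and 26.8, 22.1, 21.9, 10.7 and 22.3 TPM in mutant mice. A single WT library, replicate 5, lay inside the mutant range, and the other 4 were above all mutant mice. Mrps9 had the lowest log2 fold change of the members, -0.58 ± 0.24, with an exact permutation p of 0.0397 and an adjusted limma p of 0.779.

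Mrpl4 (ENSMUSG00000003299, chr9:21002738-21008839, plus strand), whose bacterial homologue lines the tunnel for the new protein, had 80.7, 72.5, 77.2, 89.3 and 94.9 TPM in WT mice and 76.9, 68.3, 63.2, 72.5 and 67.5 TPM in mutant mice. Mutant replicate 1 alone lay above the lowest WT mouse. For Mrpl4 the log2 fold change was -0.25 ± 0.10, with an exact permutation p of 0.0159 and an adjusted limma p of 0.779.

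Mrpl53 (ENSMUSG00000030037, chr6:83109040-83109939, plus strand) had 103, 114, 120.2, 105 and 119 TPM in WT mice and 85.6, 88.6, 91.7, 96.5 and 109 TPM in mutant mice. Mutant replicate 5 alone lay within the WT range. The log2 fold change was -0.26 ± 0.09, with an exact permutation p of 0.0238 and an adjusted limma p of 0.779. Since 88.0% of the exon bases of Mrpl53 are also annotated to Gm42688 on the same strand, reads of these overlapping genes cannot be told apart and the values of Mrpl53 are uncertain.

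Mrpl57 (ENSMUSG00000021967, chr14:57826234-57829296, plus strand), a large subunit protein specific to mitochondria, had 39.6, 43.7, 45.1, 47.7 and 58.1 TPM in WT mice and 33.7, 55.2, 25.9, 28.1 and 33.2 TPM in mutant mice. Mutant replicate 2 lay among the WT values and the other 4 below all of them. Mutant and WT mice differed by a log2 fold change of -0.45 ± 0.19, with an exact permutation p of 0.0952 and an adjusted limma p of 0.779.

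Mrpl51 was the single member whose genotype ranges did not overlap, against 1.22% of all genes tested. This large subunit gene (ENSMUSG00000030335, chr6:125191801-125196269, plus strand), specific to mitochondria, had 23.5, 19.4, 20.2, 21.9 and 22.3 TPM in WT mice and 23.8, 23.8, 26.3, 23.6 and 25.5 TPM in mutant mice. The gap between WT replicate 1 and the lowest mutant mouse was smaller than the spread in either genotype. The log2 fold change was 0.20 ± 0.11, with a 95% interval of -0.05 to 0.44, which includes 0. The limma p was 0.101 unadjusted and 0.779 adjusted. The exact permutation p of 0.0079 only restates the lack of overlap, since 5 against 5 mice without overlap always give this value.

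The other genes named for their p or their level also overlapped between the genotypes. Mrps22, a small subunit gene specific to mitochondria, had 24.5, 12.3, 14.7, 17.0 and 5.10 TPM in WT mice and 27.2, 22.7, 23.7, 15.3 and 19.4 TPM in mutant mice, with a log2 fold change of 0.70 and a 95% interval of -0.07 to 1.46. WT replicate 5 was the lowest of all mice, and the values without each mouse in turn ran from 0.36 to 0.92. Leaving out WT replicates 3 and 5 together gave 0.30. Mrps17, the homologue of bacterial S17, had 33.9 ± 8.55 TPM in WT and 25.0 ± 8.11 TPM in mutant mice, with an interval of -0.98 to 0.08. Mrps21 had an interval of -0.52 to 0.00, and Mrps11 one of -0.56 to 0.06. Mrpl37, specific to mitochondria, had 65.4 ± 11.6 and 53.6 ± 2.95 TPM, with an interval of -0.56 to 0.03. Mrpl20 had an interval of -0.82 to 0.17, Mrpl14 one of -0.42 to 0.19, Mrpl41 one of -0.17 to 0.38 and Mrps34 one of -0.37 to 0.11. All of these intervals include 0.

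Mrpl12 encodes the protein of the flexible stalk that recruits translation factors. It had 90.2, 90.8, 101, 112 and 100 TPM in WT mice and 86.2, 96.2, 81.5, 78.6 and 96.0 TPM in mutant mice. The genotypes overlapped, and the log2 fold change was -0.17 with a 95% interval of -0.39 to 0.05.

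The Mrps18 family holds 3 paralogues that descend from one bacterial protein and sit at separate places. Mrps18c, in the bacterial position of the small subunit, had 49.97, 50.6, 47.4, 55.7 and 25.6 TPM in WT mice and 45.8, 62.4, 36.9, 48.7 and 48.0 TPM in mutant mice. Mrps18b, elsewhere in the small subunit, had 19.2 ± 6.27 and 21.1 ± 3.03 TPM. Mrps18a, in the large subunit, had 72.4 ± 5.83 and 68.1 ± 7.28 TPM. The order Mrps18a, Mrps18c, Mrps18b held for the means of both genotypes, and no paralogue differed between genotypes beyond the spread between mice. Of the exon bases of Mrps18b, 30.5% overlap Gm16279 on the opposite strand. Of those of Mrps18c, 23.2% overlap Gm43511 on the same strand, so the levels of Mrps18b and Mrps18c are uncertain. The intervals of the log2 fold change were -0.32 to 0.13 for Mrps18a, -0.32 to 0.71 for Mrps18b and -0.36 to 0.57 for Mrps18c. Mrps30 had 13.1 ± 2.42 and 11.4 ± 1.09 TPM, and Mrps36 had 48.8 ± 7.69 and 50.7 ± 16.7 TPM, the latter raised by mutant replicate 5 at 80.4 TPM.

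Mrps6, Mrpl39 and Mrpl40 share chromosome 16 with Dscam. Mrps6, at 4478613 bases from Dscam, had 87.2, 64.1, 63.9, 68.0 and 54.0 TPM in WT mice and 71.6, 63.5, 62.7, 70.6 and 60.7 TPM in mutant mice. Mrpl39, at 11855098 bases, had 31.1, 22.8, 21.4, 26.6 and 18.3 TPM in WT mice and 22.3, 24.0, 19.2, 21.01 and 19.0 TPM in mutant mice. Mrpl40, at 77713978 bases, had 38.0, 41.0, 31.5, 29.1 and 25.1 TPM in WT mice and 28.7, 28.7, 32.7, 42.0 and 36.4 TPM in mutant mice. All of them overlapped between genotypes, and the log2 fold changes were -0.02, -0.17 and 0.04, with intervals that include 0. Under quantile normalization the value of Mrps6 was 0.0018, on the other side of 0.

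Variation between mice was set beside that of all genes tested, without matching by level. All 78 members had a mean of at least 5 TPM, which 11295 genes in all reached, whereas 17168 were tested. The members' coefficient of variation had a median of 18.8% in WT and 13.7% in mutant mice, against 32.3% and 22.0% over all genes tested. The WT value was the larger in 52 of the 78 members, or 66.7%, near the 68.1% of all genes. Single members ranged widely, from 0.996% for Mrpl47 to 48.0% for Mrps22 in WT and from 4.86% for Mrpl51 to 33.1% for Mrpl57 in mutant mice. WT replicate 5 was below each other WT mouse for 36 members (46.2%), against 49% of all genes. The median of its log2 ratio to the mean of the other WT mice was -0.27 for the members and -0.46 for all genes. Low and high members differed in this respect. For the 30 members with a mean under 30 TPM the median was -0.61, and for the 48 at 30 TPM or more it was -0.12, a division that was chosen after the values were seen. The lower members had 20 log2 fold changes above 0 and 10 below (median 0.11), and the higher members had 13 above and 35 below (median -0.11). Once WT replicates 3 and 5 were left out, the lower members had 11 above and 19 below (median -0.11). Over all genes tested, 66.3% then lay below 0 (median -0.09).

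The RNA components of the mitoribosome and the mRNAs it translates were compared with its protein genes. The small subunit rRNA, mt-Rnr1, had 8182, 10290, 4264, 6003 and 1977 TPM in WT mice and 11090, 9686, 10240, 11410 and 7019 TPM in mutant mice. The large subunit rRNA, mt-Rnr2, had 7010, 9431, 4300, 5613 and 2138 TPM in WT mice and 10150, 8518, 9646, 9394 and 6092 TPM in mutant mice. For both, WT replicates 3 and 5 were the lowest libraries, and WT replicates 1 and 2 lay within the mutant range. The log2 fold change was 0.87 ± 0.37 for mt-Rnr1, with an exact permutation p of 0.0714, and 0.76 for mt-Rnr2, with an exact permutation p of 0.0794, and neither passed the adjusted threshold. Both had an unadjusted limma p under 0.05, which neither had without WT replicates 3 and 5. The 13 mRNAs of mitochondrial DNA summed to 44670, 38733, 23124, 32199 and 15206 TPM in WT mice and to 41676, 37256, 39488, 44973 and 34717 TPM in mutant mice. All 13 log2 fold changes lay above 0, with a median of 0.41, and none passed the adjusted threshold. An unadjusted limma p under 0.05 was found for 1 of the 13, against 5.55% of all genes. This count varied with the fit. Without WT replicate 1 it was 12, against 9.24% of all genes, and without WT replicate 2 it was 6, against 9.52%. With replicate number added to the fit it was 7, against 6.37%, and without WT replicates 3 and 5 it was 0, against 5.96%. The most abundant of the 13, mt-Co1, had 8727 ± 4339 TPM in WT and 12040 ± 1487 TPM in mutant mice. For mt-Nd6, the one encoded on the other strand, the levels were 73.8 ± 69.6 and 120 ± 17.8 TPM. Without WT replicates 3 and 5 the medians were 0.28 for the rRNAs and 0.04 for the mRNAs.

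The highest library exceeded the lowest 5.77-fold for mt-Rnr1, 4.75-fold for mt-Rnr2, 2.96-fold for the summed mitochondrial mRNAs and 1.19-fold for the summed ribosomal protein genes. Without WT replicates 3 and 5 these values were 1.90, 1.81, 1.40 and 1.19. The sum of the protein genes follows its abundant members, and single members varied more. The coefficient of variation in WT mice was 52.9% for mt-Rnr1, close to 48.0% for Mrps22, 47.6% for Mrps10 and 47.5% for Mrpl1, while the median of the members was 18.8%. The 30 members with a mean under 30 TPM summed to 379 TPM in WT replicate 5 and 482 TPM in WT replicate 3, the lowest libraries, against 524 to 682 TPM in the other 8.

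**Figure D4:**
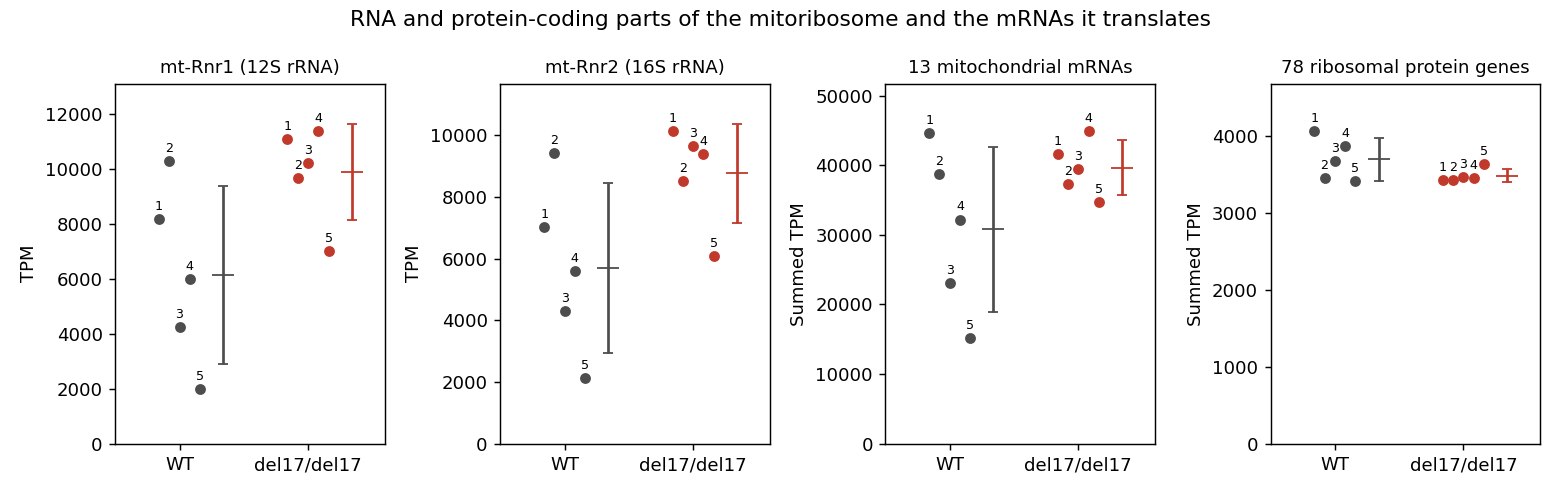
TPM of both mitochondrial rRNAs, the summed TPM of the 13 mitochondrial mRNAs and the summed TPM of the 78 ribosomal protein genes in each mouse, with replicate numbers and, beside the points, the mean and SD of the 5 mice per genotype (vertical axes start at 0). WT replicates 3 and 5 are low for the mitochondrial RNAs, down to 1977 TPM for mt-Rnr1, while the sum of the ribosomal protein genes stays between 3411 and 4066 TPM.

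No gene of the lists that work with the mitoribosome passed the adjusted threshold. At an unadjusted p under 0.05 there were 4 of 28 assembly factors, 1 of 5 mitoribosomal proteins with other names, 1 of 10 genes of mitochondrial DNA maintenance and transcription, and 0 of the translation factors, the synthetases and the genes of mitochondrial mass, against 5.55% of all genes. Mitoribosomal proteins with other names had 3 log2 fold changes above 0 and 2 below. Among them Gadd45gip1 had 33.9, 31.1, 38.7, 34.8 and 43.8 TPM in WT mice and 29.04, 28.8, 26.1, 29.2 and 32.9 TPM in mutant mice, which overlap in a single mutant mouse (log2 fold change -0.31, exact permutation p = 0.0159). Aurkaip1 had 139 ± 13.1 and 132 ± 10.9 TPM. The 28 factors of mitoribosome assembly had 13 above and 15 below, and among them Gtpbp6, a GTPase of mitoribosome assembly and recycling, had 78.3 ± 21.8 TPM in WT and 54.7 ± 13.9 TPM in mutant mice. The 14 translation factors had 8 above and 6 below. Tufm, the elongation factor that delivers tRNA, had 83.2 ± 6.58 and 78.05 ± 3.46 TPM. Lrpprc, which stabilises mitochondrial mRNAs, had 17.2 ± 8.64 and 22.0 ± 3.37 TPM. Without WT replicates 3 and 5, assembly factors had 6 above and 22 below, translation factors 2 and 12, and proteins with other names 1 and 4. In that fit 0 genes of these lists had an unadjusted p under 0.05, against 5.96% of all genes. Of all genes, 66.3% then lay below 0.

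The 17 mitochondrial aminoacyl-tRNA synthetases had 7 values above 0 and 10 below. Cars2 had 13.5 ± 4.04 and 9.82 ± 3.12 TPM, and Lars2 had 596, 2697, 2299, 301 and 277 TPM in WT mice and 340.3, 533, 366, 1999 and 369 TPM in mutant mice, high in some libraries of both genotypes. The 10 genes of mitochondrial DNA maintenance and transcription had 3 above and 7 below, with Ssbp1, the single-strand binding protein, at 21.9 ± 5.03 and 16.1 ± 2.44 TPM and Polrmt, the RNA polymerase, at 38.8 ± 10.1 and 32.1 ± 3.23 TPM. The 16 genes of mitochondrial mass had 12 above 0 and 4 below, with Vdac1, the pore of the outer membrane, at 260.2 ± 63.9 and 308 ± 14.5 TPM and Atp5b, of the ATP synthase, at 1554 ± 312 and 1436 ± 49.1 TPM. Without WT replicates 3 and 5 this split became 2 above and 14 below, so the count rested on those libraries. In that fit the synthetases had 3 above and 14 below, and the genes of mitochondrial DNA maintenance and transcription 1 and 9. At an unadjusted p under 0.05 there were then 2 synthetases and 1 gene of mitochondrial mass, against 5.96% of all genes. Genes of mitochondrial DNA maintenance and transcription numbered 0 at that p. All genes tested also shifted toward values below 0, from 44.0% with all mice to 66.3% without WT replicates 3 and 5.

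Markers of the cell types of the tissue were set beside these values. Of 12 granule cell markers 2 lay above 0 and 10 below, with a median of -0.12, and all 9 myelin markers lay above 0, with a median of 0.29 and sums between 5795 and 8394 TPM in WT and between 7379 and 8665 TPM in mutant mice. Purkinje cell markers had 9 above and 1 below, Bergmann glia markers 3 and 5, oligodendrocyte precursor markers 5 and 1, microglia markers 3 and 4, and endothelial markers 4 and 2. Of 9 brainstem and midbrain markers 4 were tested and all lay above 0, with a median of 0.94 and sums between 5.40 and 12.6 TPM in WT and between 9.76 and 18.8 TPM in mutant mice, and the remaining 5 were under 0.5 TPM. Among choroid plexus and forebrain markers 4 were tested, 2 above 0 and 2 below. At an unadjusted p under 0.05 there were 4 granule cell markers and 1 Bergmann glia marker, all lower in mutant mice. Higher at that p were 4 myelin, 2 brainstem and midbrain, 1 oligodendrocyte precursor and 1 endothelial marker. The share of all genes was 5.55%, and the other marker lists had 0. Ranges did not overlap for 2 granule cell, 2 myelin and 1 brainstem and midbrain marker, against 1.22% of all genes. No marker passed the adjusted threshold, and the part of these cells in the levels of the ribosomal protein genes was not tested.

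In the genome the 78 genes lie on 17 chromosomes, with 11 of them on chromosome 11. Paired promoters were frequent, since 18 of the 78 (23.1%) start within 1000 bases downstream of the start of a protein-coding gene that runs the other way, against 6.76% of all 22028 protein-coding genes of GENCODE M21 and 9.56% of those tested here. Mrps12 starts 172 bases from Sars2, which encodes the mitochondrial seryl-tRNA synthetase, Mrpl32 starts 75 bases from Psma2, and Mrpl51 starts 100 bases from Ncapd2. Pairs whose first exons overlap, such as Mrps11 and Mrpl46, are not in these counts. The 18 paired genes had 10 log2 fold changes above 0 and 8 below, and the other 60 had 23 above and 37 below.

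Promoter sequences from RefSeq (GRCm38.p6), from 250 bases before to 50 bases after the start, matched 69 of the 78 genes in 75 windows. Both strands were searched for the letters of 3 motifs known from nuclear genes of mitochondrial proteins, namely GCGCATGC for NRF1, CCGGAAG for ETS factors such as GABPA, and AAGATGGC for YY1. The NRF1 letters were in 8 member windows (10.7%), against 4.94% of the 13464 windows of protein-coding genes tested. The ETS letters were in 26 windows (34.7%), against 15.9%, and the YY1 letters in 12 (16%), against 4.06%. At least 1 of the 3 was in 50.7% of the member windows, against 22.9%. By contrast, the SP1 letters GGGCGGG were in 42.7%, against 45.9%, and TATAAA was in 6.67%, against 6.98%. The median G and C content was 58.7% in the member windows and 60.7% in those of tested protein-coding genes. Over all 32851 windows of the table, the shares were 2.71% for NRF1, 8.86% for ETS, 2.75% for YY1, 25.6% for SP1 and 13.6% for TATAAA.

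**Figure D5:**
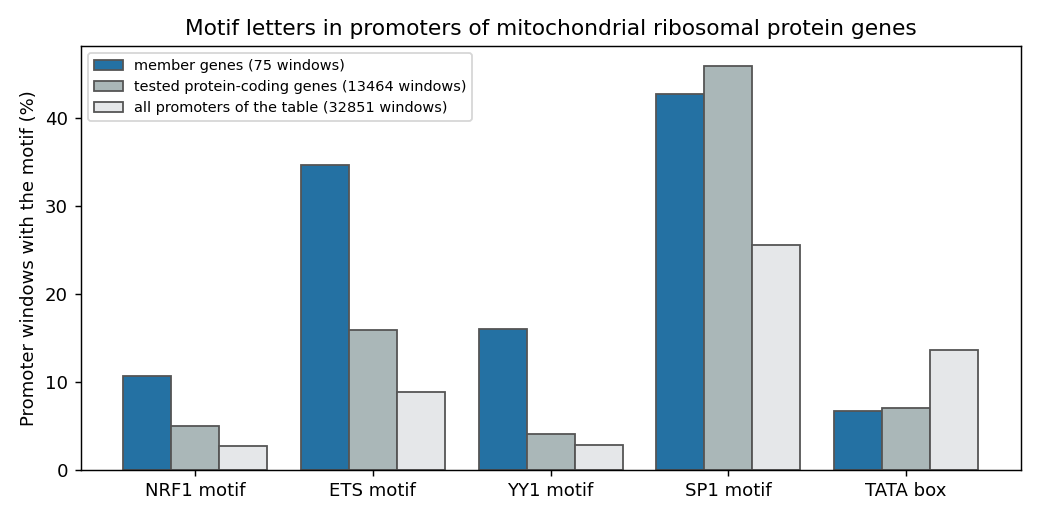
Share of promoter windows (percent, vertical axis) that hold the letters of each motif on either strand, for the mitochondrial ribosomal protein genes (75 windows), the protein-coding genes tested (13464 windows) and all promoters of the table (32851 windows). The members' bar is the highest for the NRF1, ETS and YY1 letters, with 34.7% for ETS, and lies beside that of the tested genes for SP1 and the TATA box.

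Matches are shown in their context for a few genes, to let their surroundings be compared, with 30 bases read along the strand that spells the motif, on GRCm38.p6, and the motif in capitals. Counted from the RefSeq start, the ETS letters began at -11 in Mrps22, -59 in Mrpl53, -90 in Mrpl51 and -156 in Mrps18c, and after the start, at base 5, in Mrpl57 and at base 19 in Mrps21. The stretches of Mrpl53, Mrpl51 and Mrps21 lie wholly, and that of Mrpl57 mostly, in exons of GENCODE M21.
Mrps22 (chr9:98601672-98601701, minus strand): aacctctcgagCCGGAAGttgctctatcga
Mrpl53 (chr6:83109038-83109067, plus strand): ccgcggagccgCCGGAAGcggtccgttcca
Mrpl51 (chr6:125192099-125192128, plus strand): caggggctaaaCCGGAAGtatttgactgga
Mrpl57 (chr14:57826232-57826261, plus strand): ccccagagagaCCGGAAGcagcgcgccgcc
Mrps21 (chr3:95871479-95871508, plus strand): gtctctgcggaCCGGAAGcggaagctacgg
Mrps18c (chr5:100798591-100798620, minus strand): cgcttcccgggCCGGAAGtcacgtgacccg
The NRF1 letters recurred in the promoter of Mrpl32, which has 4 matches within 120 bases of its start, 2 of them overlapping on opposite strands. The others shown are Mrpl22, which also holds the ETS letters, and Mrpl39, the gene on chromosome 16.
Mrpl32 (chr13:14613106-14613135, minus strand): ctttgacccttGCGCATGCgcaagaggggc
Mrpl32 (chr13:14613085-14613114, minus strand): aagaggggcctGCGCATGCtctgagcgagg
Mrpl22 (chr11:58171620-58171649, plus strand): ggcctcggactGCGCATGCgtatagtcagc
Mrpl39 (chr16:84735351-84735380, minus strand): caaggagaggcGCGCATGCgcccccgcgtg
The YY1 letters contain ATG, and in 5 of the 10 genes with a match whose context lay within the window that ATG was the annotated start codon of the gene, as in Mrps18a, Mrps27 and Mrps7, so a match there also lies in the first codons.
Mrps18a (chr17:46111004-46111033, plus strand): aggtgcgttccAAGATGGCggccctcaggg
Mrps27 (chr13:99344789-99344818, plus strand): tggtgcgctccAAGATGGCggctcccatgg
Mrps7 (chr11:115604147-115604176, plus strand): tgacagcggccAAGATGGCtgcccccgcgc
Mrpl37 (chr4:107066822-107066851, minus strand): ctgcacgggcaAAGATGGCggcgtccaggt

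Mrps22 and Mrps9 are shown at more length, chosen after their values were seen, and both stretches lie outside the exons of GENCODE M21. In the 120 bases before the start, Mrps22 held the ETS letters next to its start, and Mrps9, with the lowest log2 fold change of the members, held none of the 3 motifs. No relation between motif and direction is drawn from this pair. The window of Mrpl1, with the highest log2 fold change, held none of the 3 motifs, and those of Mrpl57 and Mrpl53, with log2 fold changes of -0.45 and -0.26, held the ETS letters. The letters in capitals are the ETS match.
Mrps22 (chr9:98601680-98601799, minus strand): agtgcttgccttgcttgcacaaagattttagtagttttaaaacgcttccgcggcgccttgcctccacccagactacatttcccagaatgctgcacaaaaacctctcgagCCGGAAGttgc
Mrps9 (chr1:42851113-42851232, plus strand): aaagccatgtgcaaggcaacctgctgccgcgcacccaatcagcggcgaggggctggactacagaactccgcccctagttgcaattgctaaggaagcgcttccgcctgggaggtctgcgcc
A match is a description of letters and not of a bound site. The subunits differed in the shares, with the NRF1 letters in 14.6% of large and 3.70% of small subunit windows and the ETS letters in 31.2% and 40.7%, which rest on 7 and 1 windows and on 15 and 11 windows.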

How the data were processed

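For the deposited TPM, the authors used Trimmomatic (0.36) for trimming, HISAT2 (2.2.0) for alignment to GRCm38 and StringTie (1.3.6) for the levels. The libraries were made with a directional kit. The annotation release and strand setting are not given in the sources used here. The read counts of the study were not analysed here. The TPM were kept where at least 0.5 in at least 5 of 10 libraries, 0.1 TPM was added, and log2 values were compared with limma (version 3.58.1, R 4.3.3), without covariates and with a variance trend, with Benjamini-Hochberg adjustment over 17168 genes. The added value draws fold changes of low genes toward 0. Exact permutation tests are two-sided over all divisions of 5 against 5 and were made on single values. Gene symbols and positions are from GENCODE M21, which holds 53342 of the 53447 identifiers. Ict1, listed under another name, is Mrpl58 there and is among the members. The members, lists and the rule for named genes were chosen with earlier results of these data known. The named members are the 4 most and 2 least abundant and the 5 with the smallest p of each subunit, those whose genotypes do not overlap, those on chromosome 16, the Mrps18 genes, Mrps30, Mrps36 and Mrpl12, and, from each pathway list, the gene with the smallest p and that with the highest mean. The labels name separate mice. The limma step was tested on simulated data.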

Additional observations from a re-analysis of the deposited data

Results flagged for a closer look

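Of 66 groups of 5 mice, made of the named members and the listed sums, 5 held a value far from the other 4 by Dixon's criterion at 95%, where chance gives about 1 in 20 groups, or 3.3 here. In mutant mice Mrpl57 stood at 55.2 TPM in replicate 2, with the next mouse at 33.7 TPM, and Mrps30 at 9.51 TPM in the same replicate, with the next mouse at 11.5 TPM. Mutant replicate 5 was high for Mrps12, at 98.0 TPM against 69.1 TPM, and for Mrps36, at 80.4 TPM against 45.1 TPM. In WT mice Mrps18c stood at 25.6 TPM in replicate 5, with the next mouse at 47.4 TPM. WT replicate 5 also had a high Mrps12, at 97.1 TPM.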

How the results depend on the processing

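No member passed the adjusted threshold under any alternative. Over all genes 0 passed, 4 did without the variance trend, and leaving out each mouse gave 0 to 1, the 1 without mutant replicate 4. Members at an unadjusted p under 0.05 numbered 5 (6.41%, against 5.55% of all genes). They numbered 2 without the variance trend (2.56%, against 5.41%). There were 8 with mitochondrial mRNA as a covariate (10.3%, against 6.33%) and 8 without WT replicates 3 and 5 (10.3%, against 5.96%). Leaving out each mouse gave 2 to 8 members, with 8 without WT replicate 1 (10.3%, against 9.24%). For all genes the count under that p was 953. Leaving out each mouse gave 704 to 1634 genes, with 1586 without WT replicate 1 and 1634 without WT replicate 2. With the covariate the small subunit median was -0.15 and that of all genes -0.10. Signs turned to 0.011 for Mrps12 and 0.0018 for Mrps6 under quantile normalization. With the covariate they turned to -0.14 for Mrpl40, -0.051 for Mrpl41, 0.20 for Mrps12, -0.061 for Mrps18b, -0.15 for Mrps18c, 0.0030 for Mrps24 and -0.039 for Mrps36. Without WT replicates 3 and 5 they turned to -0.10 for Mrpl40, -0.021 for Mrpl41, 0.14 for Mrps12, -0.094 for Mrps18b, -0.12 for Mrps18c and -0.12 for Mrps36. Leaving out each mouse gave -0.096 to 0.077 for Mrps6, -0.24 to 0.023 for Mrps35, -0.16 to 0.085 for Mrps36, -0.052 to 0.12 for Mrpl40, -0.15 to 0.089 for Mrps12, -0.015 to 0.33 for Mrps18b, -0.091 to 0.20 for Mrps18c and -0.084 to 0.062 for Mrpl47. The cause was not tested. Of the 78 members, 44 kept their sign when each mouse was left out.

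The labels give no pairing of mice by replicate number, and whether same-numbered mice were littermates is not known. Deviations from the group means of same-numbered mice correlated by 0.00789 to 0.0978, and 1 of 5 numbers correlated best with its own. With the number as a replicate block, 0 genes passed the adjusted threshold. An unadjusted p under 0.05 was then found for 5 members (6.41%), against 6.37% of all genes. They were 2 large and 3 small subunit genes, against 4 and 1 without the block. TPM gives no depth, so the limits of these values come from the spread of 5 mice per genotype.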
